A study of Homo sapiens with 4 samples.

Results

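The 36 genes described here make, sense, move and export cholesterol or make and desaturate fatty acids. They were chosen by these roles, with earlier results of these data known, and matched to the table by current gene symbol. Of the 36 genes, 35 were among the 36525 genes of the expression table. ACACA was not analysed here. RNA was sequenced from LM2 cells, a lung-metastatic derivative of the human triple-negative breast cancer line MDA-MB-231, after knockdown of hnRNPM, a splicing regulator that binds RNA, and from control LM2 cells. There were 2 knockdown and 2 control libraries, all collected 48 h after plating. Both an shRNA and an siRNA are named as the silencing agent in the labels, so only "knockdown" is used. Nothing in the labels places the libraries of a group in separate cultures, so p-values measure only the spread between these libraries, which may be technical.

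Cholesterol is built from acetyl-CoA through mevalonate and squalene, and the sterol ring is then trimmed in the endoplasmic reticulum. When sterols are scarce, the escort protein SCAP carries SREBP transcription factors to the Golgi for cleavage, and the SREBPs raise genes of sterol and fatty acid synthesis and uptake. When sterols are plentiful, INSIG proteins hold SCAP back, while oxysterols activate the LXR receptors, which raise ABCA1 and MYLIP among other genes.

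The targeted gene, HNRNPM (ENSG00000099783), had 11.5 and 12.95 RPKM (reads per kilobase of transcript, scaled to a read total) in the knockdown libraries, against 88.6 and 102 RPKM in the control libraries, a level 7.80-fold lower after knockdown. Estimated depth was 16.5 M and 18.3 M reads in the knockdown libraries and 23.0 M and 26.5 M in the control libraries. Replicate 2 had the higher RPKM sum in both groups, and the sums were 163078 and 180958 in the knockdown libraries and 162466 and 187293 in the control libraries. VIM, CD44 and AXL, mesenchymal genes of this line, were abundant: AXL had 202 and 225 RPKM in the knockdown libraries, against 202 and 232 RPKM in the control libraries. Of the 8 mesenchymal markers, 7 were tested: SPARC was 2.55-fold higher, SNAI2 was lower (the control mean was 1.89-fold that of the knockdown) and 5 did not pass. CDH2, below the expression filter, had 0.926 and 1.04 RPKM after knockdown and 0.0627 and 0.0579 RPKM in control cells. The hormone receptor gene PGR was listed at 0 in all 4 libraries, and ESR1 had 0.0322 RPKM or less in every library. ERBB2 had 7.19 and 8.29 RPKM in the knockdown libraries, against 8.04 and 9.13 RPKM in the control libraries, and did not pass. Of 6 adipocyte markers, 0 passed the expression filter (a mean of at least 1 RPKM over the libraries), and their summed level was 1.71 and 1.99 RPKM in the knockdown libraries and 2.04 and 2.14 RPKM in the control libraries. The 6 macrophage markers summed to 13.1 and 16.0 RPKM in the knockdown libraries and to 27.5 and 30.7 RPKM in the control libraries. CD68 had 7.69 and 8.75 RPKM after knockdown and 26.1 and 29.1 RPKM in control cells, and CD14 moved the other way, with 5.27 and 7.13 RPKM after knockdown and 1.28 and 1.44 RPKM in control cells. The leukocyte gene PTPRC had 0.0158 RPKM or less in every library. The 9 epithelial and hormone receptor markers summed to 30.5 and 34.4 RPKM in the knockdown libraries and to 22.3 and 25.3 RPKM in the control libraries. Of these, 5 were tested: KRT8 was 1.84-fold higher, KRT18 was 1.85-fold higher and 3 did not pass. CDH1, below the expression filter, had 0.717 and 0.990 RPKM after knockdown and 0.0774 and 0.0629 RPKM in control cells. The part of these marker differences in the lipid gene results was not tested. In such bulk samples, fewer cells of a type and less RNA per cell cannot be told apart.

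Lipid genes moved in both directions, often within 1 pathway. Of the 34 genes that passed the expression filter, 9 were higher and 5 lower after knockdown, and 20 did not pass (limma across all 13627 tested genes, Benjamini-Hochberg adjusted p of at most 0.05). These shares, 26.5% and 14.7%, stand beside 14.7% of all tested genes higher and 21.8% lower. The genes were chosen with earlier results of these data known, so setting the shares side by side is not a test. The 9 higher genes were ABCA1, HMGCS1, MSMO1, STARD4, IDI1, SC5D, NPC1, SREBF1 and FASN, and the 5 lower genes were INSIG1, FADS1, PMVK, FADS2 and ACLY. The median log2 fold change (knockdown minus control, on log2(RPKM + 0.5)) was 0.095 over the 34 genes and -0.07 over all tested genes. With median-ratio scaling, which removes a depth difference shared by all genes of a library, 17 genes were higher and 10 lower, against 30.8% of all tested genes higher and 30.2% lower. The 13 genes that passed only with this scaling were MVK, MVD, TM7SF2, DHCR7, NR1H2, NPC2, SCD and LPIN1 (higher) and SQLE, EBP, SCAP, MYLIP and ELOVL6 (lower). Over all tested genes the calls were 2000 higher and 2964 lower without this scaling, and 4192 higher and 4122 lower with it. The 2 libraries of each group lay wholly above or below those of the other in 23 of the 34 genes, 13 with the knockdown higher and 10 with it lower, where 28.0% and 38.8% of all tested genes did so.

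**Figure D1:**
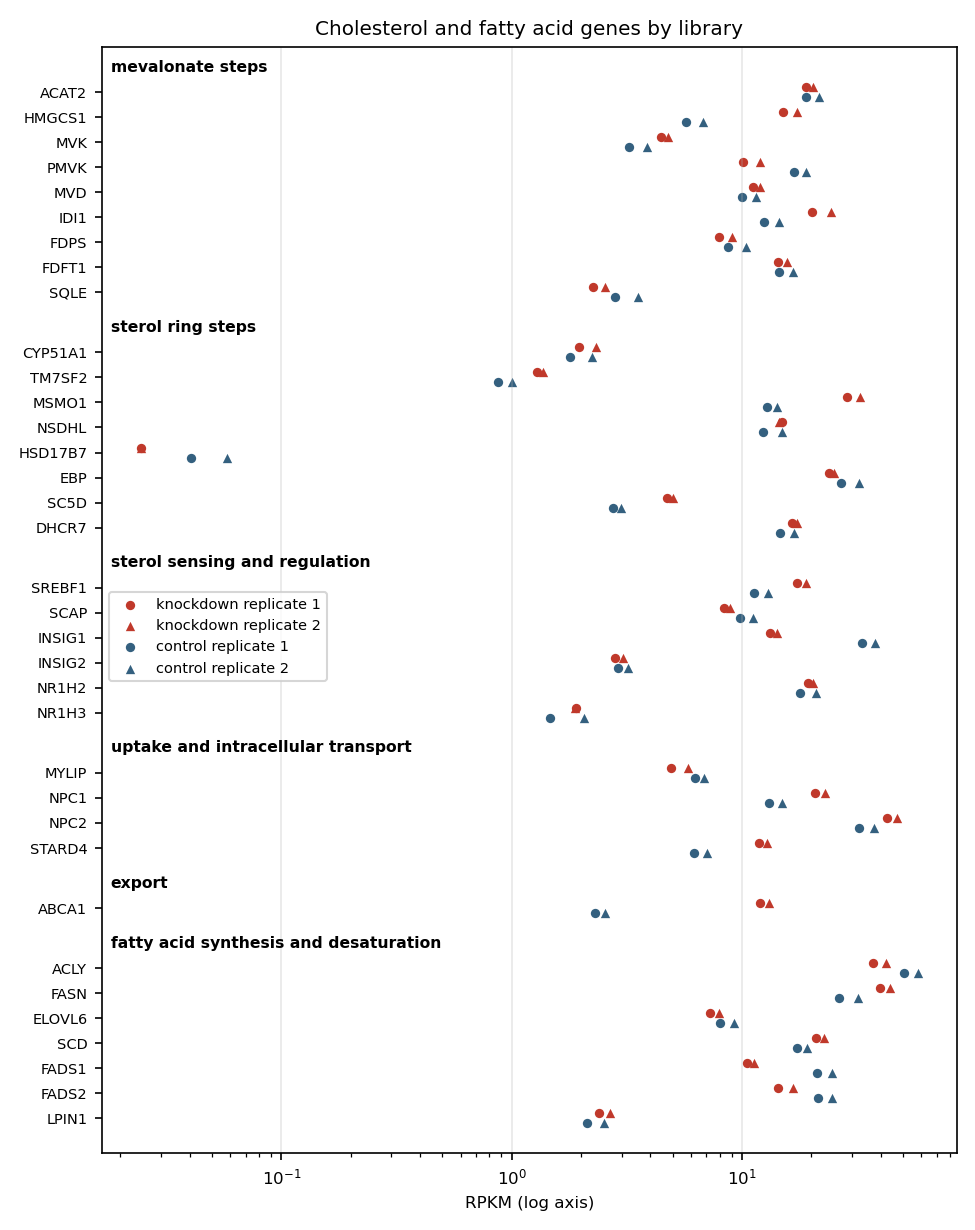
RPKM of each gene in each of the 4 libraries, on a log axis, in the order of their roles, with knockdown and control libraries as separate points. ABCA1 averages 12.5 RPKM after knockdown and 2.41 RPKM in control cells, while INSIG1 averages 13.7 RPKM after knockdown and 35.5 RPKM in control cells.

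The calls differ in how firmly 4 libraries carry them. In all 4 fits that leave out 1 library, 4 genes stayed higher (HMGCS1, MSMO1, STARD4 and ABCA1) and 2 stayed lower (INSIG1 and FADS1). The calls of SREBF1, NPC1, FASN, ACLY and FADS2 were lost in every such fit. In these fits the lone library of a group is assumed to vary like the other group. They used the values as deposited, without median-ratio scaling. With that scaling and all 4 libraries, these 5 genes passed (limma, adjusted p from 0.00037 for NPC1 to 0.0012 for FADS2). Without the expression filter, ABCA1 and INSIG1 passed and the other 12 did not. In the unscaled fit, standard errors were close to 0.18 for all these genes. With median-ratio scaling they ran from 0.017 for ACLY to 0.053 for SC5D. In the unscaled fit limma drew them mostly from the spread shared across genes, and the smallest p-values depend on that sharing. An exact permutation test of 2 against 2 libraries can reach a two-sided p of 0.333 at the lowest and was not run.

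The mevalonate steps, from acetyl-CoA to squalene epoxide, held both a strong rise and a fall. Of 9 tested enzymes, 2 were higher (22.2%), 1 was lower (11.1%) and 6 did not pass, where 14.7% of all tested genes were higher and 21.8% lower. With median-ratio scaling 4 were higher and 2 lower, where 30.8% and 30.2% of all tested genes were. HMGCS1, the cytosolic synthase that makes HMG-CoA, had 15.1 and 17.4 RPKM in the knockdown libraries, against 5.71 and 6.78 RPKM in the control libraries. Both knockdown libraries lay above both controls, and the mean was 2.60-fold higher (16.2 ± 1.61 RPKM after knockdown, 6.24 ± 0.761 RPKM in control cells; SD, n = 2 each; log2 fold change 1.31 ± 0.18 SE; limma, adjusted p = 2.61e-12). IDI1, the isomerase of isopentenyl diphosphate, had 20.1 and 24.2 RPKM in the knockdown libraries, against 12.4 and 14.5 RPKM in the control libraries. It was 1.64-fold higher (log2 fold change 0.70 ± 0.17; limma, adjusted p = 0.000441), and its call was lost without control replicate 1 (adjusted p = 0.093) and without knockdown replicate 2 (adjusted p = 0.227). IDI1 shares 14.8% of its exon bases with its antisense gene IDI2-AS1, which was also higher (7.42 and 7.97 RPKM after knockdown, 3.94 and 5.03 RPKM in control cells), and the sources used here do not say whether reads were counted by strand. Without strand, reads of the pair cannot be told apart. The same holds for exon bases of HMGCS1 (703 of 4702 bases, with AC114947.2), FDPS (18.6%, with RUSC1-AS1), ACAT2 (33.9%, with SOD2-OT1), SREBF1 (6.92%, with RAI1) and NPC1 (5.98%, with RMC1), each on the opposite strand.

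PMVK, the phosphomevalonate kinase between these steps, moved the other way. It had 10.1 and 11.96 RPKM in the knockdown libraries, against 16.9 and 18.9 RPKM in the control libraries, with no overlap. The control mean was 1.62-fold that of the knockdown (log2 fold change -0.68 ± 0.18; limma, adjusted p = 0.000669), and the call was lost without control replicate 2 or without either knockdown library (adjusted p 0.0582 to 0.240). The neighbouring kinase gene MVK had 4.47 and 4.79 RPKM in the knockdown libraries, against 3.23 and 3.88 RPKM in the control libraries (limma, adjusted p = 0.115; after median-ratio scaling it was 0.00389).

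The remaining mevalonate enzymes did not pass. ACAT2, the thiolase at the entry, had 19.0 and 20.3 RPKM in the knockdown libraries, against 18.9 and 21.6 RPKM in the control libraries (log2 fold change -0.04; limma, adjusted p = 0.889). MVD, FDPS and FDFT1, which make isopentenyl diphosphate, farnesyl diphosphate and squalene, had log2 fold changes of 0.10, -0.16 and -0.05. SQLE, the squalene epoxidase and a slow step of the pathway, had 2.25 and 2.55 RPKM in the knockdown libraries, against 2.81 and 3.53 RPKM in the control libraries (log2 fold change -0.33 ± 0.18; limma, adjusted p = 0.136). The ratio of HMGCS1 to SQLE within a library, which a depth difference does not touch, was 6.71 and 6.82 in the knockdown libraries and 2.03 and 1.92 in the control libraries. Such ratios, here and below, restate the values behind the fold changes and are no separate test.

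Among the sterol ring steps, 2 of 7 tested enzymes were higher (28.6%) and 0 lower, where 14.7% and 21.8% of all tested genes were. With median-ratio scaling 4 were higher and 1 lower, where 30.8% and 30.2% of all tested genes were. MSMO1, a monooxygenase that takes part in removing methyl groups from the ring, had 28.6 and 32.5 RPKM in the knockdown libraries, against 12.8 and 14.2 RPKM in the control libraries. It was 2.27-fold higher (30.6 ± 2.78 RPKM after knockdown, 13.5 ± 1.02 RPKM in control cells; SD, n = 2 each; log2 fold change 1.15 ± 0.17; limma, adjusted p = 1.01e-09). SC5D, a late desaturase of the ring, had 4.72 and 4.99 RPKM in the knockdown libraries, against 2.76 and 2.97 RPKM in the control libraries. It was 1.69-fold higher (log2 fold change 0.67 ± 0.18; limma, adjusted p = 0.000857), and its call was lost without knockdown replicate 1 (adjusted p = 0.0591) and without knockdown replicate 2 (adjusted p = 0.094).

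CYP51A1, TM7SF2, NSDHL, EBP and DHCR7, which demethylate, reduce, decarboxylate, isomerise and finally reduce the sterol, did not pass. Their log2 fold changes were 0.07, 0.35, 0.11, -0.26 and 0.10. MSMO1 and EBP therefore stood in a different proportion within each library: the ratio of MSMO1 to EBP was 1.20 and 1.30 in the knockdown libraries and 0.475 and 0.441 in the control libraries. CYP51A1 shares 79.4% of its exon bases with a readthrough gene on the same strand, so its level is uncertain. HSD17B7, the keto-reductase of ring demethylation, was listed at 0.0245 and 0.0245 RPKM in the knockdown libraries and at 0.0405 and 0.0579 RPKM in the control libraries, about 3 and 3 estimated reads after knockdown and 8 and 12 in control cells. It was below the filter. Its near-identical pseudogene HSD17B7P2 was as low, at 0.0612 and 0.0408 RPKM after knockdown and 0.0433 and 0.0577 RPKM in control cells. How reads matching both genes were handled is not stated in the sources used here, so both levels are uncertain.

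**Figure D2:**
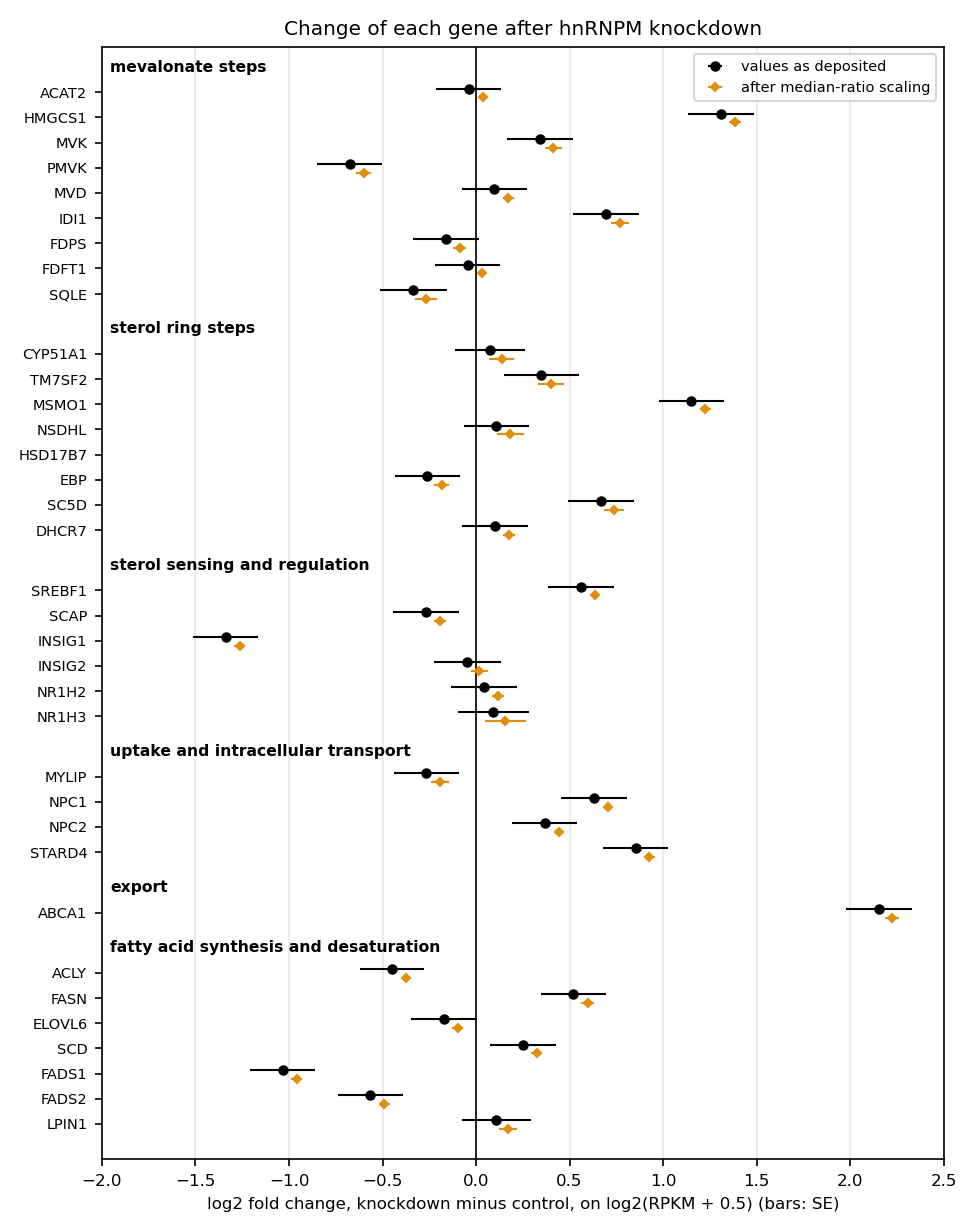
Log2 fold change of each tested gene (knockdown minus control, on log2(RPKM + 0.5)) with its standard error, ordered by role, for the values as deposited (black) and after median-ratio scaling (orange). As deposited, the changes run from -1.34 for INSIG1 to 2.16 for ABCA1, and each role with more than 1 gene holds values on both sides of 0.

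Of the 6 sterol sensing and regulation genes, SREBF1 was higher, INSIG1 was lower and 4 did not pass. Each direction thus held 16.7%, where 14.7% of all tested genes were higher and 21.8% lower. SREBF1, which encodes an SREBP transcription factor, had 17.4 and 18.9 RPKM in the knockdown libraries, against 11.3 and 13.0 RPKM in the control libraries. It was 1.49-fold higher (log2 fold change 0.56 ± 0.18; limma, adjusted p = 0.00549, and 0.0617 to 0.296 with 1 library left out). INSIG1, which retains SCAP and is itself an SREBP target, had 13.3 and 14.1 RPKM in the knockdown libraries, against 33.3 and 37.7 RPKM in the control libraries. The control mean was 2.59-fold that of the knockdown (13.7 ± 0.614 RPKM after knockdown, 35.5 ± 3.14 RPKM in control cells; SD, n = 2 each; log2 fold change -1.34 ± 0.17; limma, adjusted p = 6.60e-13). INSIG2, its paralog with the same retention role, had 2.82 and 3.05 RPKM in the knockdown libraries, against 2.90 and 3.20 RPKM in the control libraries. The ratio of INSIG1 to INSIG2 was 4.71 and 4.64 in the knockdown libraries and 11.5 and 11.8 in the control libraries.

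INSIG1 and HMGCS1, both classical SREBP targets, moved in opposite directions. The ratio of HMGCS1 to INSIG1 was 1.14 and 1.23 in the knockdown libraries, against 0.172 and 0.180 in the control libraries. SCAP had 8.32 and 8.86 RPKM in the knockdown libraries, against 9.77 and 11.1 RPKM in the control libraries (limma, adjusted p = 0.233). NR1H2, an LXR gene, had 19.3 and 20.4 RPKM in the knockdown libraries, against 17.8 and 20.8 RPKM in the control libraries, and NR1H3, the other LXR gene, had 1.89 and 1.89 RPKM in the knockdown libraries, against 1.46 and 2.06 RPKM in the control libraries. Their groups overlapped, and neither passed (log2 fold changes 0.04 and 0.09).

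Export and intracellular transport held the largest rise. ABCA1, the transporter that loads cellular cholesterol onto apolipoproteins and an LXR target, had 11.9 and 13.0 RPKM in the knockdown libraries, against 2.29 and 2.53 RPKM in the control libraries. It was 5.17-fold higher (12.5 ± 0.765 RPKM after knockdown, 2.41 ± 0.170 RPKM in control cells; SD, n = 2 each; log2 fold change 2.16 ± 0.18; limma, adjusted p = 3.29e-32), the 37th highest log2 fold change of 13627 genes. MYLIP, another LXR target, which marks lipoprotein receptors for degradation, had 4.91 and 5.79 RPKM in the knockdown libraries, against 6.22 and 6.82 RPKM in the control libraries (log2 fold change -0.27; limma, adjusted p = 0.237). The ratio of ABCA1 to MYLIP was 2.43 and 2.25 in the knockdown libraries and 0.369 and 0.371 in the control libraries.

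STARD4, a soluble carrier of sterols between membranes and an SREBP target, had 11.8 and 12.8 RPKM in the knockdown libraries, against 6.17 and 7.01 RPKM in the control libraries. It was 1.87-fold higher (log2 fold change 0.85 ± 0.18; limma, adjusted p = 1.08e-05). NPC1, the membrane protein that lets cholesterol out of lysosomes, had 20.8 and 22.9 RPKM in the knockdown libraries, against 13.04 and 14.8 RPKM in the control libraries. It was 1.57-fold higher (log2 fold change 0.63 ± 0.17; limma, adjusted p = 0.00158, and 0.0511 to 0.230 with 1 library left out). NPC2, the soluble partner that hands cholesterol to NPC1, had 42.5 and 47.0 RPKM in the knockdown libraries, against 32.1 and 37.2 RPKM in the control libraries (log2 fold change 0.37; limma, adjusted p = 0.083; with median-ratio scaling, 0.000456). The ratio of NPC1 to NPC2 was 0.488 and 0.487 in the knockdown libraries and 0.407 and 0.399 in the control libraries.

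The promoters of the 3 largest rises and of the largest fall are shown because SREBP and LXR act through short motifs near gene starts. Each window runs from 250 bases before to 50 bases after a start (RefSeq, GRCh38.p14; 31 of the 36 genes have a window), read 5′ to 3′ on the gene's strand. Capitals mark matches, on either strand, to the sterol regulatory element TCACNCCAC, the LXR direct repeat (copies of GGTNA spaced by 5 bases) and the E-box CACGTG. No match to the sterol regulatory element was in these windows, and the MSMO1 window held no capitals. HMGCS1 has 2 windows, and the one shown was picked because it held the most marked matches.
ABCA1, chr9:104928106-104928405, minus strand: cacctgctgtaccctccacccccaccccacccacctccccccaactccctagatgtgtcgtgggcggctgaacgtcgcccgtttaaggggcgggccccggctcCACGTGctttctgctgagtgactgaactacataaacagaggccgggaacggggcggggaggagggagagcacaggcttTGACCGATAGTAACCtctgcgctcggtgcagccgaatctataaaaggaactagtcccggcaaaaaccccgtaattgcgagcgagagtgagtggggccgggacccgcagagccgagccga
HMGCS1, chr5:43313132-43313431, minus strand: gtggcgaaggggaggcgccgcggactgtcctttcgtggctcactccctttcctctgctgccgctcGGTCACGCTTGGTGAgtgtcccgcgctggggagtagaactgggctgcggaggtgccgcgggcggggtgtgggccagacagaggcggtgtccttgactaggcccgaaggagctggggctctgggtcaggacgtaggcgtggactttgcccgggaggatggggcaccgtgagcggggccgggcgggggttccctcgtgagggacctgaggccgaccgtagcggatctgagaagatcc
MSMO1, chr4:165327419-165327718, plus strand: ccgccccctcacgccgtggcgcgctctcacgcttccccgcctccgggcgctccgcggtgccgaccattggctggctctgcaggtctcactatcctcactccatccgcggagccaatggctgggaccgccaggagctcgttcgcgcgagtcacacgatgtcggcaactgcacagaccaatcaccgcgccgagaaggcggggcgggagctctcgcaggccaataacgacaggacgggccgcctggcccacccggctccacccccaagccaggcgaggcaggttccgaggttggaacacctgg
INSIG1, chr7:155297628-155297927, plus strand: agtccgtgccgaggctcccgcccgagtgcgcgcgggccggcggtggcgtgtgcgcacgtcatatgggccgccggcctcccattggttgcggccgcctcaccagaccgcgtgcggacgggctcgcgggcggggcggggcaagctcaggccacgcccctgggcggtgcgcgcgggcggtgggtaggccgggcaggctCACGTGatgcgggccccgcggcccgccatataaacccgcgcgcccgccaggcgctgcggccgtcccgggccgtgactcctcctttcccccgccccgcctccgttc

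The LXR direct repeat was in the windows of 2 of 31 genes, ABCA1 and HMGCS1, and of 0.780% of all 27305 genes with a window. It begins at position -69 from the gene start in ABCA1 and at -185 in HMGCS1, in 1 of that gene's 2 windows. The E-box was in the windows of 4 genes (ABCA1, INSIG1, SC5D and SCAP) and of 8.77% of all genes. The sterol regulatory element TCACNCCAC was in 0 of 31 genes and in 1.39% of all genes, and its shorter core CACNCCAC in 5 genes (ABCA1, IDI1, INSIG1, SC5D and SCD) and in 7.05% of all genes. The CCAAT box, where the SREBP partner NF-Y binds, was in 20 of 31 genes (64.5%) and in 39.7% of all genes. The 27305 genes with a window were not limited to expressed genes, while 34 of the 36 genes passed the expression filter. The shares are therefore not matched for expression, and enrichment was not tested. The core CACNCCAC lies within TCACNCCAC, and overlaps between the other motifs were not removed. ABCA1 and INSIG1, which moved in opposite directions, both carried the E-box and the core CACNCCAC. These matches are letters in a window and not measured binding.

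**Figure D3:**
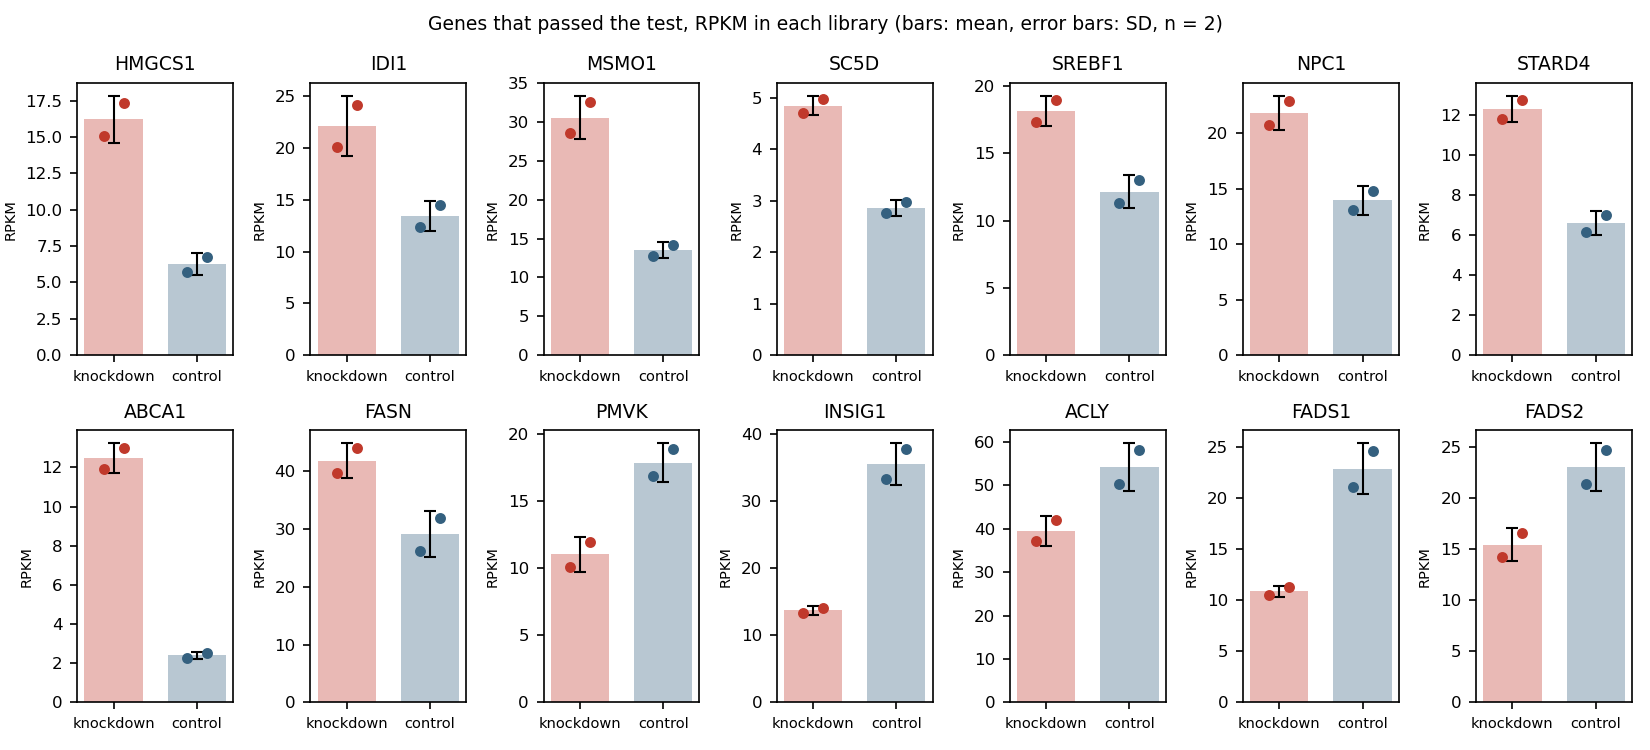
RPKM in each library of the 14 genes that passed the test, with bars at the group mean and error bars of 1 SD (n = 2), each panel on its own axis from 0. The 9 higher genes come first, then the 5 lower ones, and the points of the groups do not overlap in any panel.

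Among the fatty acid genes, FASN was higher and ACLY, FADS1 and FADS2 were lower. Of 7 tested genes, 1 was higher (14.3%) and 3 were lower (42.9%), where 14.7% and 21.8% of all tested genes were. With median-ratio scaling 3 were higher and 4 lower, where 30.8% and 30.2% of all tested genes were. FASN, the synthase that builds palmitate, had 39.7 and 43.97 RPKM in the knockdown libraries, against 26.3 and 31.96 RPKM in the control libraries. It was 1.44-fold higher (log2 fold change 0.52 ± 0.17; limma, adjusted p = 0.0102, and 0.0688 to 0.388 with 1 library left out). ACLY, which supplies cytosolic acetyl-CoA from citrate to both pathways, had 37.1 and 41.9 RPKM in the knockdown libraries, against 50.4 and 58.1 RPKM in the control libraries. The control mean was 1.37-fold that of the knockdown (log2 fold change -0.45 ± 0.17; limma, adjusted p = 0.0283, 0.0661 without a variance trend, and 0.101 to 0.531 with 1 library left out).

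The desaturases of polyunsaturated fatty acids, FADS1 and FADS2, were both lower. FADS1 had 10.5 and 11.3 RPKM in the knockdown libraries, against 21.1 and 24.6 RPKM in the control libraries. The control mean was 2.10-fold that of the knockdown (log2 fold change -1.03 ± 0.18; limma, adjusted p = 5.53e-08). FADS2, which acts earlier in the same chain, had 14.3 and 16.6 RPKM in the knockdown libraries, against 21.4 and 24.7 RPKM in the control libraries (log2 fold change -0.56 ± 0.17; limma, adjusted p = 0.00517, and 0.0608 to 0.378 with 1 library left out). The ratio of FADS2 to FADS1 was 1.36 and 1.47 in the knockdown libraries and 1.01 and 1.00 in the control libraries, and that of FASN to FADS1 was 3.78 and 3.90 in the knockdown libraries and 1.24 and 1.30 in the control libraries. FADS1 and FADS2 lie on opposite strands and share 490 exon bases, 4.79% of those of FADS1 and 4.44% of those of FADS2.

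SCD, the desaturase of saturated fatty acids, had 20.9 and 22.6 RPKM in the knockdown libraries, against 17.2 and 19.2 RPKM in the control libraries (log2 fold change 0.25; limma, adjusted p = 0.268; with median-ratio scaling, 0.00262). ELOVL6, an elongase, and LPIN1, a phosphatidate phosphatase, had log2 fold changes of -0.17 and 0.11, and neither passed. All 3 are known SREBP targets.

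Further lipid genes were read from 7 lists of 160 genes outside the 36, of which 123 were tested: 17 were higher, 19 lower and 87 did not pass. The shares were 13.8% higher and 15.4% lower, against 14.7% and 21.8% of all tested genes, and each list's counts are to be read against these. Their median log2 fold change was 0.01. These lists were also chosen with earlier results of these data known. SREBP and sterol sensor processing had 6 higher, 2 lower and 10 that did not pass, of 18. RNF145, a ubiquitin ligase that acts on SCAP and is known as an LXR target from mouse liver, had 28.6 and 31.8 RPKM in the knockdown libraries, against 11.3 and 13.6 RPKM in the control libraries (log2 fold change 1.25; limma, adjusted p = 3.03e-11). SEC24A, a COPII coat subunit, had 9.08 and 9.60 RPKM in the knockdown libraries, against 4.08 and 4.69 RPKM in the control libraries (log2 fold change 1.01; limma, adjusted p = 1.11e-07). SPRING1, a factor needed for SREBP cleavage, was lower, with 6.29 and 6.61 RPKM after knockdown and 10.8 and 11.3 RPKM in control cells (log2 fold change -0.73; limma, adjusted p = 0.000201), a call lost without either knockdown library (adjusted p 0.0594 to 0.0992). ERLIN2, which binds SCAP and INSIG complexes, averaged 2.57 ± 0.189 RPKM after knockdown and 3.75 ± 0.553 RPKM in control cells (SD, n = 2 each; log2 fold change -0.47).

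Among sterol esterification, transport and lipoprotein receptor genes, 4 were higher, 5 were lower and 15 did not pass, of 24. OSBPL5, an oxysterol-binding protein of membrane contact sites, had 1.12 and 1.03 RPKM in the knockdown libraries, against 3.56 and 4.20 RPKM in the control libraries (log2 fold change -1.47; limma, adjusted p = 9.67e-14). LRP8, a lipoprotein receptor, had 1.88 and 2.23 RPKM in the knockdown libraries, against 3.81 and 4.46 RPKM in the control libraries (log2 fold change -0.86; limma, adjusted p = 1.63e-05). CAV1, the caveolae protein that binds cholesterol, averaged 207 ± 14.8 RPKM after knockdown and 137 ± 13.6 RPKM in control cells, and SCARB2, a lysosomal membrane protein, averaged 13.6 ± 1.24 RPKM after knockdown and 8.75 ± 0.861 RPKM in control cells (SD, n = 2 each; log2 fold changes 0.59 and 0.61). Of 8 tested oxysterol and LXR partner genes, 0 passed with limma, and with median-ratio scaling 4 were higher and 0 lower.

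Isoprenoid branches and protein prenylation had 2 higher, 1 lower and 11 that did not pass, of 14. DHDDS, of dolichol synthesis, and ZMPSTE24, the protease that processes prelamin A, were higher (log2 fold changes 0.53 and 0.45), and ICMT, which methylates prenylated proteins, was lower (-0.60). In fatty acid elongation, desaturation and activation, 4 were higher, 1 was lower and 14 did not pass, of 19. ELOVL7, an elongase, had 8.61 and 9.08 RPKM in the knockdown libraries, against 3.11 and 3.64 RPKM in the control libraries (log2 fold change 1.27; limma, adjusted p = 1.14e-11). HACD2, a dehydratase of the elongation cycle, averaged 17.3 ± 1.42 RPKM after knockdown and 7.65 ± 0.776 RPKM in control cells (SD, n = 2 each; limma, adjusted p = 2.86e-09). ACSL1, which activates fatty acids to their CoA esters, had 2.69 and 2.99 RPKM in the knockdown libraries, against 5.36 and 6.13 RPKM in the control libraries (log2 fold change -0.90; limma, adjusted p = 3.44e-06). The calls of DHDDS, ZMPSTE24, ICMT, ERLIN2, CAV1 and SCARB2 were lost in every fit that left out 1 library.

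**Figure D4:**
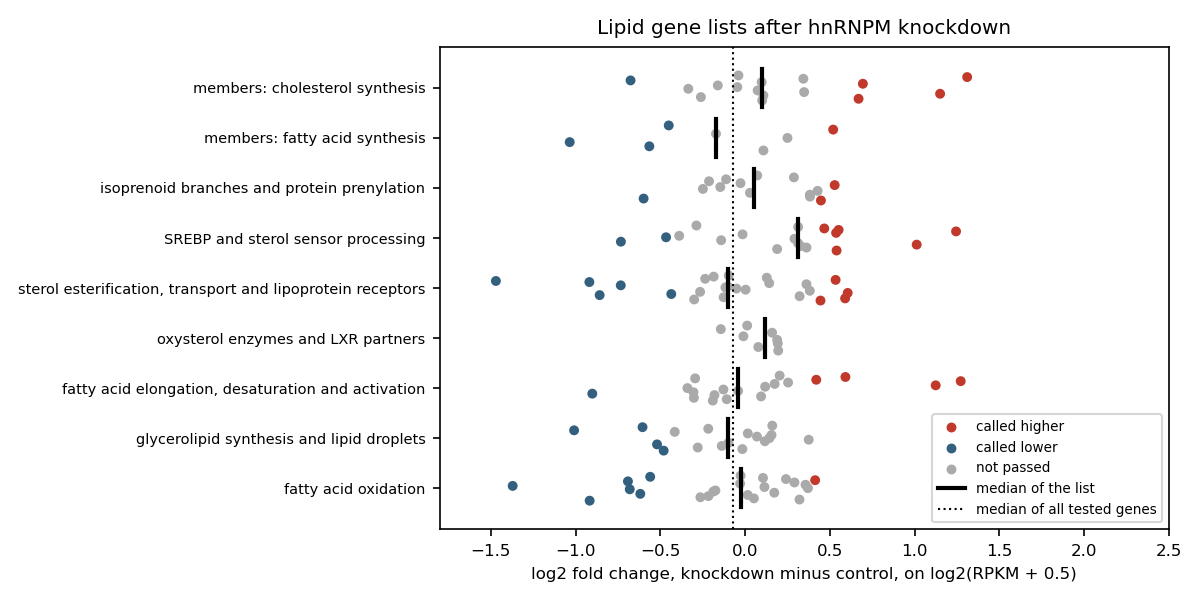
Log2 fold change (knockdown minus control, on log2(RPKM + 0.5)) of each tested gene in cholesterol synthesis (mevalonate and ring steps together), in fatty acid synthesis and in the 7 further lists, with the list median as a bar and the median of all tested genes, -0.07, as a dotted line. SREBP and sterol sensor processing has the highest list median, 0.31. The 4 calls in glycerolipid synthesis are all lower, 23.5% of its tested genes, against 21.8% of all tested genes. With median-ratio scaling that list has 5 higher and 6 lower.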

How the data were processed

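RNA was sequenced from 2 knockdown and 2 control libraries of LM2 cells. The authors deposited RPKM values for 36525 Ensembl genes, and the submitters' processing notes name Bowtie 0.12.7 and the human build hg19; the sources used here name no counting program and do not say how strand or multi-mapped reads were handled. Names came from current symbol tables and GENCODE 29 (32308 genes named, 4217 unnamed). The table held 0 genes of chromosomes 20, 21 and 22, which were not analysed here, and 0 columns of values were left unused.

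Among low RPKM values, 82.8% to 83.2% per library were whole reads within 0.1 read once a read total of 29.6 M was taken for both knockdown libraries and of 41.9 M and 41.8 M for the control libraries. The deposited values may therefore carry depth differences between libraries of a group. Reads estimated in this way were used for depth, for the read numbers of HSD17B7 and for the chi-square between libraries that follows. They entered no test of a gene. The libraries of a group were close to counting error: the mean chi-square per gene was 1.32 between the knockdown libraries and 1.33 between the control libraries (about 1 for counting error alone), and 81.5 to 90.1 between groups. Each counts as 1 sample.

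Genes with mean RPKM of 1 or more (13627) were tested as log2(RPKM + 0.5). The model, fitted with limma 3.58.1 in R 4.3.3, had group as its only term (empirical Bayes moderation, variance trend, Benjamini-Hochberg adjustment over all tested genes, threshold 0.05), tested on simulated data. This scale understates changes of low genes. A fold given without log2 is a ratio of mean RPKM values. The members and lists were chosen with earlier results of these data known. All members are named; from each further list, up to 2 genes that rose and 2 that fell, chosen by smallest p among those that passed and had no overlap between groups. LBR was chosen after its values were seen.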

Additional observations from a re-analysis of the deposited data

How the results depend on the processing

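In the unscaled fit the median SE was 0.175, and changes between -0.41 and 0.41 (log2) did not pass. With median-ratio scaling the median SE was 0.054, and smaller changes passed, such as -0.099 for ELOVL6. Pseudocounts of 0.1 and 1 kept every member's direction and side of the threshold. Median-ratio scaling gave 4192 genes higher and, of the members, 17 higher and 10 lower; ACAT2, FDFT1 and INSIG2 then had log2 fold changes of 0.036, 0.029 and 0.018, above 0. Without a filter, 262 genes were higher and 255 lower, with 1 member higher (ABCA1) and 1 lower (INSIG1). At a mean RPKM of at least 5, fewer genes were tested, and 1047 were higher and 1321 lower. Replicate 2 had the larger size factor in both groups. Apart from a shift shared by all genes, which the correlation does not see, deviations of same-numbered libraries correlated at r = 0.03 over 13627 genes. With 2 pairs, the numbers were not taken to pair libraries, and a replicate block gave 3109 genes higher and 4318 lower, with 12 members higher and 9 lower (MVK, NPC2 and SCD added as higher, SQLE, EBP, SCAP and MYLIP as lower). Leaving out 1 library gave 759 to 1158 genes higher and 1057 to 2007 lower, and 4 to 6 members higher and 2 to 3 lower. In these fits the log2 fold change ran from -0.13 to 0.056 for ACAT2, -0.14 to 0.047 for FDFT1, -0.11 to 0.012 for INSIG2, -0.052 to 0.20 for CYP51A1, -0.025 to 0.24 for NSDHL, -0.069 to 0.15 for NR1H2 and -0.10 to 0.28 for NR1H3. The shorter promoter motifs matched 5 members for the sterol regulatory element and 3 for the LXR repeat. The cause of these shifts was not tested.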

Other observations

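Further lists held genes that store or burn fatty acids. Of 17 tested genes of glycerolipid synthesis and lipid droplets, 0 were higher, 4 were lower and 13 did not pass (with median-ratio scaling 5 higher and 6 lower). AGPAT2, an acyltransferase on the way to phosphatidic acid, had 10.9 and 12.2 RPKM in the knockdown libraries, against 21.6 and 26.1 RPKM in the control libraries (log2 fold change -1.01; limma, adjusted p = 1.23e-07). GPAT3, the acyltransferase of the step before it, averaged 9.72 ± 1.03 RPKM after knockdown and 15.1 ± 1.80 RPKM in control cells (SD, n = 2 each; limma, adjusted p = 0.00262), and its call was lost without control replicate 2 or without either knockdown library (adjusted p 0.0968 to 0.304).

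Of 23 tested genes of fatty acid oxidation, 1 was higher, 6 were lower and 16 did not pass (with median-ratio scaling 7 higher and 7 lower). HADH, a mitochondrial dehydrogenase of beta-oxidation, had 6.35 and 6.84 RPKM in the knockdown libraries, against 16.5 and 19.3 RPKM in the control libraries (log2 fold change -1.37; limma, adjusted p = 2.12e-13). PPARD, a nuclear receptor that raises oxidation genes, averaged 5.61 ± 0.310 RPKM after knockdown and 11.06 ± 1.16 RPKM in control cells (SD, n = 2 each; log2 fold change -0.92; limma, adjusted p = 1.93e-06). ACADM, the medium-chain acyl-CoA dehydrogenase, was the 1 higher gene (log2 fold change 0.41; limma, adjusted p = 0.0499), and its call was lost in every fit that left out 1 library.

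LBR, a nuclear envelope protein that shares its sterol reductase activity with TM7SF2, had 4.23 and 4.68 RPKM in the knockdown libraries, against 23.2 and 26.9 RPKM in the control libraries (log2 fold change -2.36 ± 0.18; limma, adjusted p = 1.31e-38). TM7SF2 had 1.29 and 1.37 RPKM in the knockdown libraries, against 0.869 and 1.00 RPKM in the control libraries (log2 fold change 0.35; limma, adjusted p = 0.169).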
